A study of Arabidopsis thaliana with 18 samples.

Results

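Signals of 4 Arabidopsis thaliana genes were followed over 18 ATH1 arrays, of 22746 probe sets other than controls on each. The genes were AT3G28510, which encodes an ATPase (chromosome 3), AT4G22530, a methyltransferase (chromosome 4), AT3G23550, a transporter (chromosome 3), and AT1G02360, a chitinase (chromosome 1). They were picked by name with their values in these same arrays known, because their signals follow those of salicylic acid (SA) marker genes. Their levels are therefore given as a description. Each gene was read by 1 probe set, a group of short probes to 1 transcript whose brightness MAS5 turns into a single signal. Since whole samples were measured, fewer cells of a type and less RNA per cell cannot be told apart.

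SA is a plant hormone of defence against microbes that feed on living tissue. It is sensed by proteins of the NPR family, which act with TGA transcription factors on defence genes, and glycosyltransferases such as UGT76B1 convert it to inactive sugar conjugates. Chitinases cut chitin, a polymer of fungal cell walls, and are classic products of defence genes. Transporters of the MATE family (multidrug and toxic compound extrusion) export small molecules across membranes, AAA-ATPases use ATP to remodel or unfold proteins, and methyltransferases of the AT4G22530 type take the methyl group from S-adenosylmethionine. The substrates of the transporter and the methyltransferase are not named here.

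All arrays carried RNA of Cvi-1, an accession from the Cape Verde Islands. The SA arrays, 9 in all with title serials 28 to 36, came from samples given 0.30 mM SA dissolved with 0.02% silwet, a wetting agent. The silwet arrays, 9 in all with serials 19 to 27, came from samples given 0.02% silwet with no SA. The sources used here name neither the tissue nor the plants' age or time of harvest. Each treatment holds replicate numbers 1, 2 and 3 in each of 3 runs of consecutive serials, called serial blocks: block 1 is SA 28 to 30 and silwet 19 to 21, block 2 is SA 31 to 33 and silwet 22 to 24, and block 3 is SA 34 to 36 and silwet 25 to 27. No label explains the blocks, and none names separate plants, so the spread that each p-value rests on may be a technical one.

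Arrays 28 and 30 (SA) and array 20 (silwet), all of block 1, stood apart from the other 15 for a large share of the array: they held the 3 highest signals in 1453 of 13648 tested probe sets (10.6%). Array 29 (SA) and array 20 (silwet) share replicate number 2, and each goes against its label in UGT76B1, which had 1238, 41.2 and 1552 in SA arrays 28, 29 and 30, against 39.3, 1540 and 77.6 in silwet arrays 19, 20 and 21, and 10.3 to 76.8 in blocks 2 and 3. An exchange of the labels of arrays 20 and 29 is possible and was not tested, and it would change every SA minus silwet value that includes them. The labels are used as given. Results on block 1 are given with and without that number. The array medians of arrays 28, 30 and 20 were 34.6, 33.1 and 33.3, against 31.7 to 38.7 in the other 15. Signal at the 3′ end over the 5′ end, a sign of RNA integrity, was 2.74, 2.63 and 2.30 for ubiquitin in those arrays, against 2.54 to 3.71. The same ratio was 1.12, 1.29 and 0.997 for actin, against 0.577 to 1.19, and 1.003, 1.10 and 1.16 for GAPDH, against 0.879 to 1.31. The part of RNA quality in the results was not tested. A probe set was named only if its annotation held 1 gene symbol and 1 gene identifier, as for 13513 of the 22746. The rest were left unnamed, so a gene without a named probe set may still be on the array. Among leaf markers, RCA and LHCB4.1, of photosynthesis, had signals between 1760 and 3576 on every array, and the other 3 had no named probe set. Of the root markers EXPA7 and EXPA18 were at most 16.3. The pollen markers with a named probe set were at most 3.38, and no seed storage marker had a named probe set.

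The ATPase gene AT3G28510 was high in 3 arrays of block 1 and low in the rest. In block 1 its signal was 499, 9.61 and 483 in SA arrays 28, 29 and 30, against 18.7, 423 and 41.3 in silwet arrays 19, 20 and 21. In block 2 it was 33.0, 34.7 and 58.4 in SA, against 81.9, 56.2 and 35.1 in silwet. In block 3 it was 37.5, 7.46 and 27.9 in SA, against 57.2, 42.9 and 23.6 in silwet. The treatments overlapped in every block. The lowest of the 3 high signals was 5.16 times the highest of the other 15, and 6 tested probe sets (0.044%) had a ratio at least as large, itself included. The 2 lowest of its 18 signals were in arrays 35 and 29, both SA and both replicate 2.

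The methyltransferase gene AT4G22530 was high in the same arrays, with the order among them changed. Its signals in block 1 were 432.99, 91.1 and 595 in SA arrays 28, 29 and 30, against 75.3, 708 and 97.9 in silwet arrays 19, 20 and 21. Block 2 gave 41.6, 69.7 and 34.5 in SA, against 60.1, 37.9 and 36.9 in silwet. Block 3 gave 35.6, 35.0 and 38.9 in SA, against 47.1, 38.9 and 40.3 in silwet. Here the highest signal of all belonged to a silwet array. All 6 arrays of block 1, its 3 low ones included, lay above all 12 arrays of blocks 2 and 3, whose highest signal was 69.7. The lowest of the 3 high signals was 4.42 times the highest of the other 15. For AT3G28510, AT4G22530 and AT1G02360 this ratio was at least 4, as for 9 tested probe sets in all (0.0659%).

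AT3G23550, the MATE-type transporter gene, was raised over the whole of block 1 and not in 3 arrays alone. Block 1 signals were 184, 67.7 and 398 in SA arrays 28, 29 and 30, against 59.6, 267 and 147 in silwet arrays 19, 20 and 21. Those of block 2 were 19.5, 26.5 and 27.3 in SA, against 11.2, 24.7 and 21.8 in silwet. Those of block 3 were 18.1, 34.6 and 26.6 in SA, against 17.6, 30.5 and 21.6 in silwet. Its 6 block 1 signals all exceeded the 12 others, as for AT4G22530 and for 150 tested probe sets (1.1%) in all. Silwet array 21, at 147, came close to SA array 28, at 184, so that the lowest of the 3 high signals was only 1.26 times the highest of the other 15.

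The chitinase gene AT1G02360 was again high in arrays 28, 30 and 20 and low elsewhere. Its block 1 signals were 140, 18.9 and 153 in SA arrays 28, 29 and 30, against 22.7, 133 and 27.8 in silwet arrays 19, 20 and 21. In block 2 they were 6.42, 10.8 and 10.3 in SA, against 13.4, 22.0 and 10.5 in silwet. In block 3 they were 11.52, 8.33 and 14.1 in SA, against 16.03, 15.4 and 15.1 in silwet. All 3 SA arrays of block 3 lay below all 3 silwet arrays, as in 4.47% of tested probe sets, while 3.46% had all 3 above. No other gene and block of the 12 combinations had treatments that did not overlap, against 0.689% of tested probe sets with SA above and 1.55% with SA below in block 1, and 2.32% above and 2.37% below in block 2. Without arrays 28, 30 and 20 its mean log2 signal fell below the 40th percentile of the array, the level needed for testing, so it was tested only through those arrays. MAS5 signal is least precise at such low values.

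**Figure D1:**
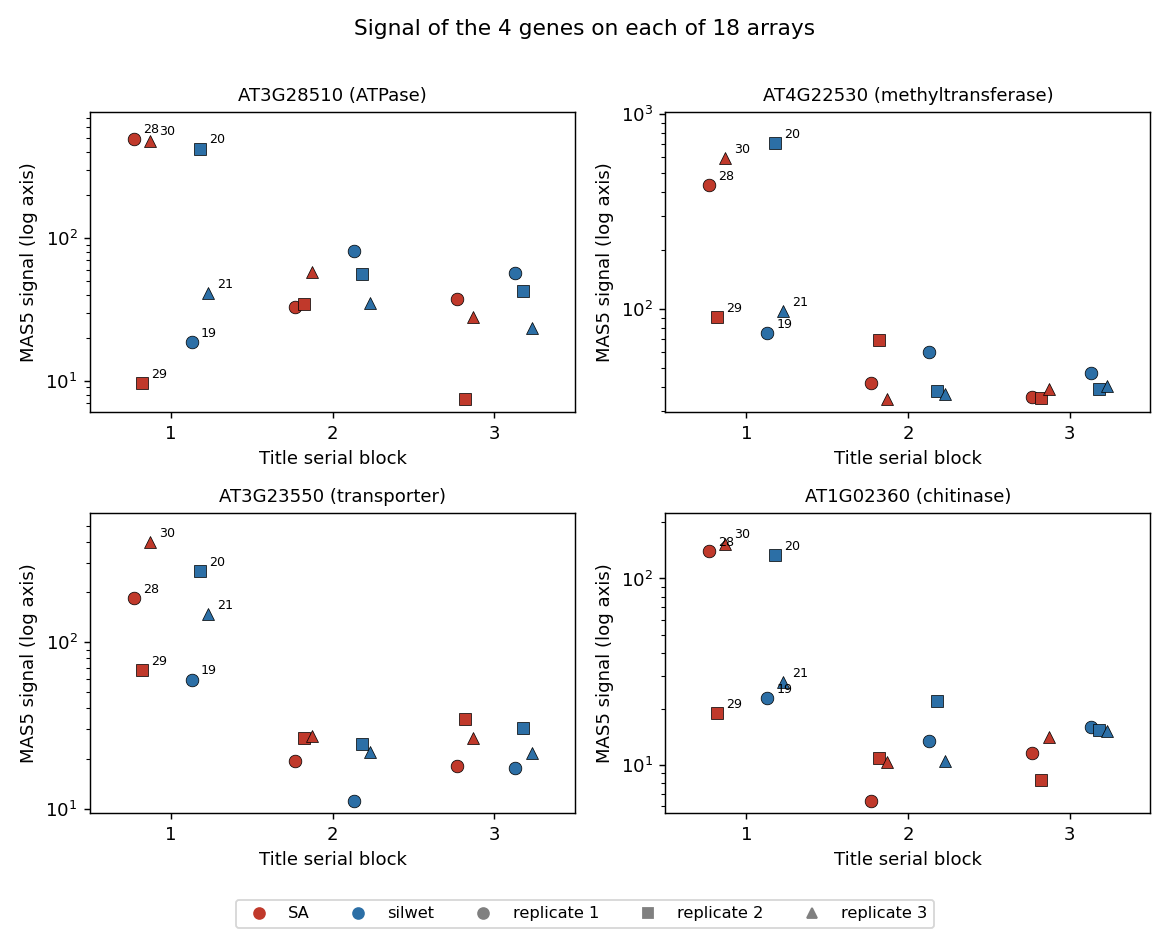
MAS5 signal (log axis) of each gene on each of the 18 arrays by title serial block, with SA arrays in red left of silwet arrays in blue, the marker shape giving the replicate number and block 1 arrays labelled by serial. Arrays 28, 30 and 20 hold the 3 highest signals of each gene, and for AT4G22530 and AT3G23550 the other arrays of block 1 also lie above blocks 2 and 3.

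SA arrays were compared with silwet arrays over the whole table, to ask whether 0.30 mM SA changed these genes. Differences are given as log2 of the SA signal minus log2 of the silwet signal. AT3G28510 averaged 132 ± 204 in SA and 86.7 ± 128 in silwet (SD, n = 9 each), a log2 difference of -0.15 (SE 0.75). AT4G22530 averaged 153 ± 210 in SA and 127 ± 219 in silwet, a difference of 0.20 (SE 0.63). AT3G23550 averaged 89.2 ± 127 in SA and 66.7 ± 86.1 in silwet, a difference of 0.32 (SE 0.65). For AT1G02360 the means were 41.5 ± 59.8 in SA and 30.6 ± 38.7 in silwet, and the difference was -0.14 (SE 0.61). Each difference was smaller than its SE, and the SD exceeded the mean in every group. Serial block was left out of this fit, so differences between blocks add to these SEs. With serial block added to the fit, limma called 0% of probe sets.

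Medians put the treatments closer together or the other way round. They were 34.7 in SA and 42.9 in silwet for AT3G28510, 41.6 and 47.1 for AT4G22530, 27.3 and 24.7 for AT3G23550, and 11.52 and 16.03 for AT1G02360, SA first in each pair. Limma called 0 of the 4 genes and 0 of all 13648 probe sets (0%), with 94 at an unadjusted p under 0.05. That is fewer than the 1 in 20 that chance alone would give, as are the counts within each block with all arrays, given below. The fits may therefore be conservative, and 0 calls does not show that SA had no effect. Without arrays 28, 30 and 20 the differences of AT4G22530 and AT3G23550 turned to -0.15 and -0.05. Without replicate 2 all 4 were positive, at 1.22 for AT3G28510, 0.67 for AT4G22530, 0.76 for AT3G23550 and 0.57 for AT1G02360, with 0 calls. Without replicate 1 the differences were -0.69, 0.04, 0.06 and -0.40 for the same genes in that order, and without replicate 3 they were -0.98, -0.11, 0.13 and -0.61, also with 0 calls.

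Within block 1 the SA difference depended on whether replicate 2 was kept. With all 3 numbers it was 0.94 (SE 1.24) for AT3G28510, 0.72 (SE 0.69) for AT4G22530, 0.36 (SE 0.56) for AT3G23550 and 0.76 (SE 0.69) for AT1G02360, and limma called 0% of probe sets, with 121 at an unadjusted p under 0.05. Without replicate 2, which left SA arrays 28 and 30 against silwet arrays 19 and 21, it was 4.14 (SE 0.54) for AT3G28510, 2.56 (SE 0.29) for AT4G22530, 1.53 (SE 0.51) for AT3G23550 and 2.54 (SE 0.32) for AT1G02360. The spread behind these SEs comes from all groups of that fit.

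In that fit the ATPase, methyltransferase and chitinase genes were among the 1134 probe sets (8.31%) that limma called, of which 501 (3.67%) were higher and 633 (4.64%) lower in SA, and the transporter gene was not. The genes were chosen with these arrays in view, and AT1G02360 is tested only through arrays 28, 30 and 20, so their calls count as description. Of all calls 44.2% were higher in SA as deposited and 68.0% after median centring, which moved the median difference of all probe sets to 0.03 against -0.11 as deposited. Leaving out replicate 1, replicate 3 or any single array gave 0 calls in block 1. Without replicate 1 the difference was -0.96 for AT3G28510, -0.18 for AT4G22530, -0.27 for AT3G23550 and -0.17 for AT1G02360. Without replicate 3 it was -0.36, -0.22, -0.18 and -0.10 for the same genes in that order.

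Blocks 2 and 3 showed no high array for any of the 4 genes. In block 2 the SA difference was -0.42 for AT3G28510, 0.08 for AT4G22530, 0.41 for AT3G23550 and -0.70 for AT1G02360. In block 3 it was -0.96, -0.20, 0.18 and -0.49 for the same genes in that order. Fitting the 6 arrays of a block alone, so that the spread of block 1 did not enter, gave SEs of 0.30 to 0.39 in block 2 and 0.20 to 0.60 in block 3. Limma called 0% of probe sets in either block, where 56 probe sets of block 2 and 337 of block 3 had an unadjusted p under 0.05. The fits of a block alone also gave 0 calls, where these numbers were 168 and 260. Without replicate 2 limma called 1 probe set (0.00733%) in block 2 and 0% in block 3, none of the 4 genes. The transporter gene was the only 1 of the 4 with a positive difference in both blocks, and neither was called.

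**Figure D2:**
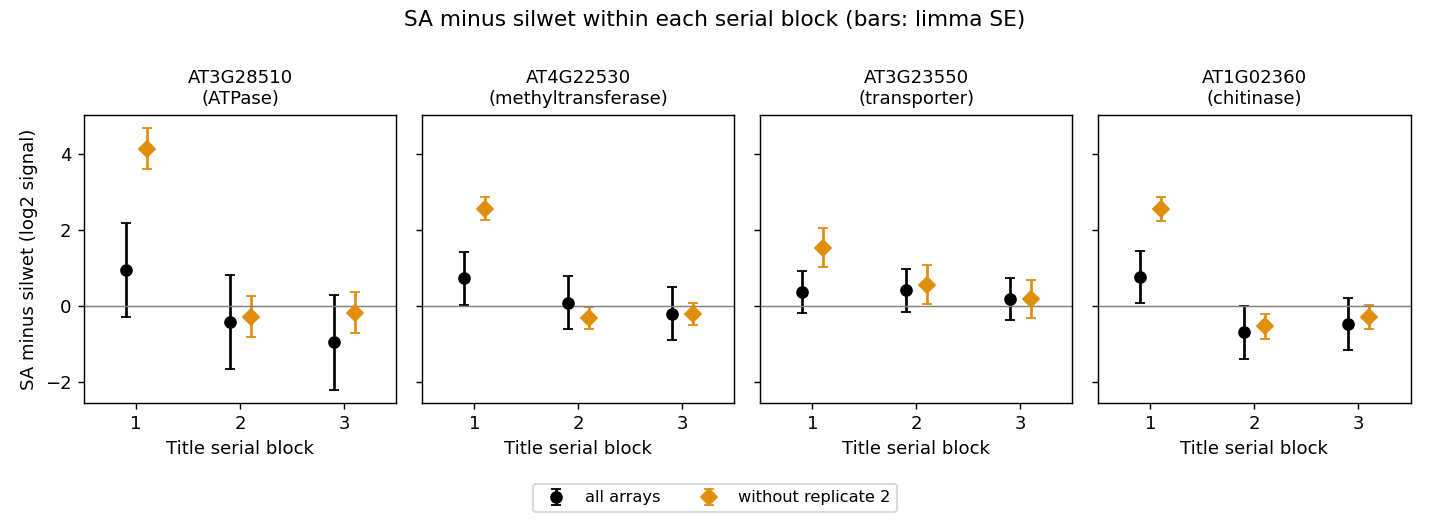
SA minus silwet difference (log2 signal) of each gene within each title serial block, from the fit on all arrays (black circles, n = 3 against 3) and from the fit without replicate 2 (orange diamonds, n = 2 against 2); bars are the SE from limma. In block 1 the difference without replicate 2 is 4.14, 2.56, 1.53 and 2.54 from the left, and in blocks 2 and 3 it lies closer to 0 for every gene.

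Whether the SA difference itself changed between blocks was tested with an interaction term. With all arrays limma called 0 of the 4 genes and 0% of probe sets (91 at an unadjusted p under 0.05). Without replicate 2 it called 77 probe sets (0.564%), among them AT3G28510, AT4G22530 and AT1G02360, and not AT3G23550. The genes were chosen for their pattern in these arrays, the number left out is the one that goes against that pattern, and AT1G02360 is tested only through arrays 28, 30 and 20, so these calls are a description. Leaving out replicate 1 or replicate 3 gave 0 calls.

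Block 1 was set against blocks 2 and 3 over both treatments, 6 arrays against 12. The log2 difference between block 1 and the mean of blocks 2 and 3 was 1.40 for AT3G28510, 2.41 for AT4G22530, 2.74 for AT3G23550 and 2.22 for AT1G02360, against a median of -0.07 over all tested probe sets. Limma's F-test over the blocks called the methyltransferase, transporter and chitinase genes, not the ATPase gene with all arrays, where 10.1% of tested probe sets were called, 5.11% with block 1 higher and 5.01% with it lower. Its adjusted p was 0.334 for the ATPase gene. All 4 genes were called without replicate 2 (7.15% of probe sets called), without array 29 (24.9%) and with array weights (27.8%). The genes were chosen for their pattern in these arrays, and AT1G02360 is tested only through arrays 28, 30 and 20. Their calls over the blocks are therefore a description. The block difference of AT3G28510 was 0.75 without array 20 and 2.35 without array 29, the lowest and highest values with 1 array or 1 replicate number left out. Block 3 minus block 2 was -0.76 (SE 0.88), -0.21 (SE 0.49), 0.20 (SE 0.40) and 0.20 (SE 0.49) for the ATPase, methyltransferase, transporter and chitinase genes.

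The same comparison was made without arrays 28, 30 and 20. The block difference was then -1.14 for AT3G28510, with an adjusted p of 0.332. Of the remaining block 1 arrays 19 and 29 (18.7 and 9.61) lay below all but 1 array of blocks 2 and 3, and array 21 (41.3) lay above their median of 36.3. The difference was 1.07 for AT4G22530 and 1.83 for AT3G23550 in that fit, and AT1G02360 was not tested. The transporter gene was then the 1 of 3 tested genes that limma called, where 0.85% of probe sets were, and 0.601% with block 1 higher. Without replicate 3, 0 of the 4 were called, and 11 probe sets (0.0806%) in all. Without replicate 1 the transporter gene alone of the 4 was called, where 3.96% of probe sets were. Without array 28, 30 or 20 AT1G02360 was not tested. The methyltransferase and transporter genes were called in those 3 runs, where 6.54%, 3.47% and 3.78% of probe sets were, in that order.

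Replicate numbers, 6 arrays each, were compared next. AT3G28510 had a mean log2 signal of 5.94 ± 1.65, 5.21 ± 2.09 and 5.78 ± 1.60 (SD, n = 6) in replicates 1, 2 and 3. AT3G23550 had 4.92 ± 1.51, 5.59 ± 1.32 and 5.70 ± 1.78. The means of AT4G22530 lay between 6.13 and 6.29 and those of AT1G02360 between 4.26 and 4.42. Limma's F-test over the numbers called 0 of the 4 genes, where 2.93% of probe sets were called.

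The 4 genes were set against each other over the 12 arrays of blocks 2 and 3, which leave out arrays 28, 30 and 20, since correlations over all 18 would be set by the 3 high arrays. Pearson's r ran from -0.59 for AT3G28510 and AT3G23550 (Spearman's rho -0.36) to 0.44 for AT3G28510 and AT1G02360 (rho 0.33). The first had a two-sided permutation p of 0.0535 for r, 0.321 after adjustment over the 6 pairs, and 0.243 for rho (0.593 adjusted). The second had a permutation p of 0.157 for r (0.330 adjusted) and 0.297 for rho (0.593 adjusted). Without the 2 arrays farthest from the median of AT3G28510 the first r was 0.06 and the second 0.27. The methyltransferase and transporter genes gave r = -0.43 (rho -0.51, adjusted permutation p = 0.330 and 0.563), which was -0.55 without the 2 farthest arrays. For AT3G28510 array 35, at 7.46, lay below the other 11 of these arrays, at 23.6 to 81.9. None of the 6 pairs passed, so no shared variation was detected among the genes outside block 1 with 12 arrays. The permutations moved arrays freely across treatments, blocks and replicate numbers, so the p-values take no account of spread that such groups share.

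The probe sets nearest in pattern were taken for each gene as the 5 named ones with the highest Pearson's r over the 18 arrays, a measure that the 3 high arrays dominate. For AT3G28510 they were AT5G17760 (r = 0.95), itself an AAA-ATPase gene, AT4G02220 (0.94), AT3G47480 (0.93), AT4G30230 (0.91) and the glycosyltransferase gene UGT73D1 (0.91). AT5G17760 had signals of 231 and 240 in SA arrays 28 and 30 and 205 in silwet array 20, against 51.5 to 92.2 in the other 15. UGT73D1 had 187 and 91.6 in SA arrays 28 and 30 and 146 in silwet array 20, against 12.6 to 52.4. Like AT3G28510, both were lower in array 29 (53.8 and 12.6) than in arrays 19 and 21.

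For AT4G22530 the nearest were AT3G59660, AT4G17070, AT4G24160, AT3G57700 and AT3G57880, all with r between 0.96 and 0.97. AT3G57880 had 164 and 195 in SA arrays 28 and 30 and 184 in silwet array 20, against 31.2 to 80.7 elsewhere. For AT3G23550 the nearest were AT1G61360, AT4G35110, AT2G25735, AT5G14730 and CCOAMT, a caffeoyl-CoA methyltransferase gene, with r between 0.94 and 0.95. AT2G25735 had 214 and 521 in SA arrays 28 and 30, against 356 and 310 in silwet arrays 20 and 21. It shared with the transporter gene the high level in silwet array 21, and AT5G14730 had 103 there, against 104 in SA array 28.

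For AT1G02360 the nearest were AT1G28190 (r = 0.95), AT1G61660 (0.95), AT5G63490 (0.95), the methyltransferase gene AT4G22530 itself (0.94) and AT3G13950 (0.94). AT3G13950 had 757 and 984 in SA arrays 28 and 30 and 974 in silwet array 20, against 120 to 357 elsewhere. The F-test over the blocks called 10.1% of all tested probe sets. It called all 5 genes nearest to each of AT4G22530, AT3G23550 and AT1G02360, and 0 of the 5 nearest to AT3G28510. These genes were picked for their likeness, so the counts describe the groups and test nothing.

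**Figure D3:**
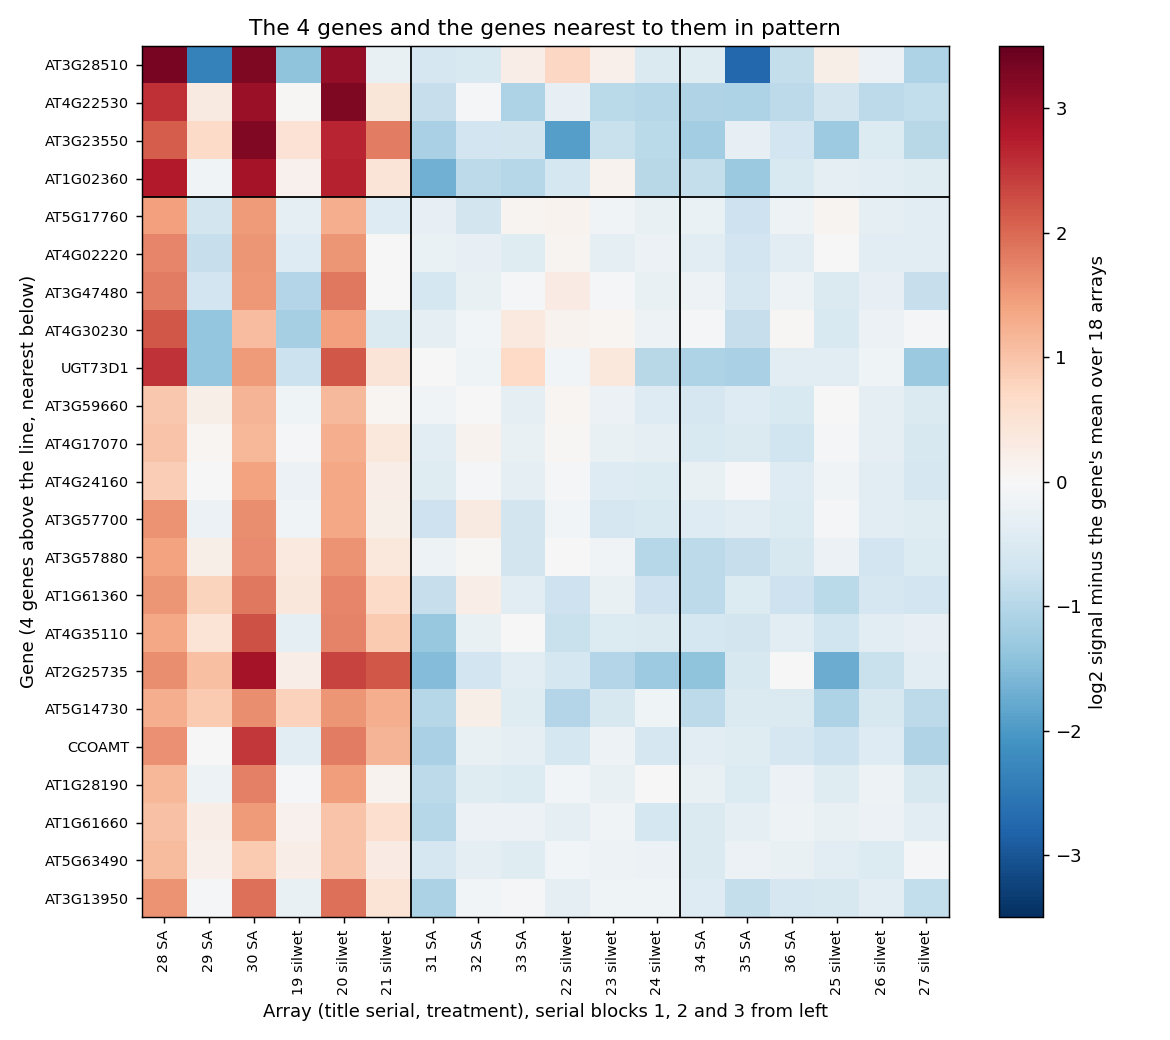
Log2 signal minus each gene's mean over the 18 arrays (colour scale) for the 4 genes, above the line, and the 19 probe sets nearest to them in pattern with AT4G22530 counted once among the 4, below it, with arrays in columns by serial block and SA left of silwet within a block. Columns 28, 30 and 20 are red in every row, and in the upper row of AT3G28510 columns 29 and 35 are the darkest blue.

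Families of the 4 genes were read from lists of loci. Of 22 further AAA-ATPase genes of the BCS1 type, 4 were tested, and without replicate 2 limma called all 4 higher in SA within block 1, where 3.67% of all probe sets were. AT5G17760 differed by 1.86, AT1G43910 by 1.74, AT3G28540 by 1.52 and AT2G46620 by 1.08, with a median of 1.63 for the list and -0.11 for all probe sets. With all arrays 0 of the 4 were called. Replicate 2 is the number that goes against the pattern in block 1. Counts without it are a description, here and in the lists below. AT5G17760 was also the gene nearest to AT3G28510 in pattern. Over the blocks 1 of the 4, AT1G43910, was called higher in block 1, where 5.11% of all probe sets were, and the median block 1 difference of the list was 0.55.

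Of the 23 further chitinase and chitinase-like genes 6 were tested, and 2 were called higher in SA within block 1 without replicate 2, where 3.67% of all probe sets were: AT3G47540, by 2.11, and AT4G01700, by 1.08. Over the blocks AT4G01700 and AT2G43620 were called, higher in block 1 by 1.77 and 2.63, where 5.11% of all probe sets were called higher. The chitinase gene CHI had 724, 150 and 447 in SA arrays 28 to 30, against 188, 368 and 323 in silwet arrays 19 to 21 and 259 to 985 in blocks 2 and 3. Its block 1 difference was -0.68, below 0 where those of the other named chitinase genes were above it.

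Of 49 further MATE transporter genes 15 were tested, with a median block 1 difference of 0.10. Limma called 2 of them higher in block 1, where 5.11% of all probe sets were: AT2G04050, by 1.57, and AT1G33110, by 1.34. AT3G21690 was the 1 called higher in SA within block 1 without replicate 2, by 1.10, where 3.67% of all probe sets were. AT1G47530 and AT2G21340 differed between SA and silwet by 0.44 and -0.38 in that fit and were not called. Of 5 methyltransferase genes listed with AT4G22530, 4 were tested, and 3 were called higher in block 1, where 5.11% of all probe sets were: AT3G54150 by 1.80, AT2G41380 by 1.60 and AT3G61210 by 0.56. None of the 4 was called for SA within block 1 without replicate 2, although AT3G54150 differed by 1.76. AT1G55450 differed by 0.69 there.

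The list of 38 genes of SA synthesis, conjugation and signalling had 4 tested members, and all 4 held their 3 highest signals in arrays 28, 30 and 20, as did 10.6% of all probe sets. Without replicate 2 the SA difference within block 1 was 4.65 for the SA glycosyltransferase gene UGT76B1, 2.23 for the glutaredoxin gene GRX480 and 1.66 for the transcription factor gene WRKY53, all called, where 3.67% of all probe sets were called higher, against 0.91 for the lipase-like SAG101, not called. The pattern of UGT76B1 in arrays 20 and 29 is itself what set replicate 2 apart. The list was also chosen with earlier results of these data known. The count in arrays 28, 30 and 20 and the values without replicate 2 are therefore a description. Over the blocks limma called 2 of the 4 higher in block 1, where 5.11% of all probe sets were. The jasmonate list had 0 tested members of 10, and only PDF1.2, at most 35.6 on every array, had a named probe set. The detoxification list had 1 tested member of 10, GSTU25, which differed by 0.77 in SA within block 1 without replicate 2 and was not called.

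**Figure D4:**
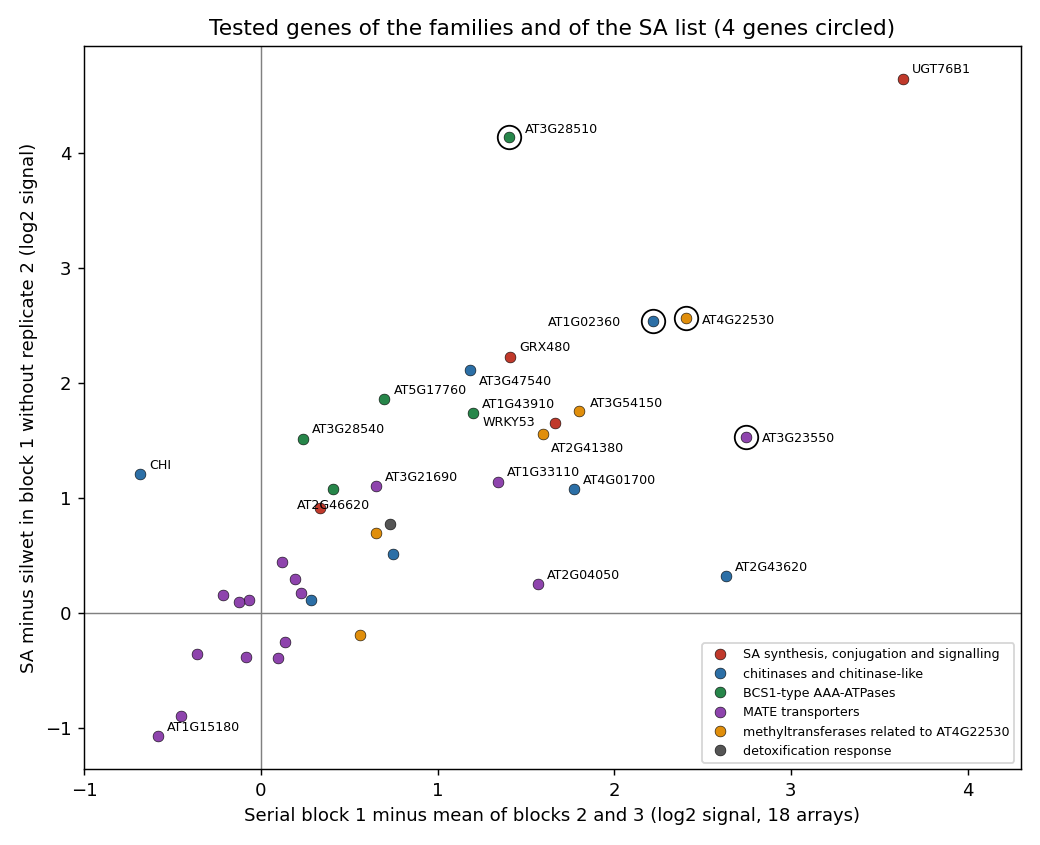
Log2 difference of block 1 from the mean of blocks 2 and 3 over 18 arrays (horizontal axis) and log2 difference of SA from silwet in block 1 without replicate 2 (vertical axis) for the tested genes of the listed families, the SA list and the detoxification list, with the 4 genes circled. AT3G28510 (1.40, 4.14) lies high for its block difference, AT3G23550 (2.74, 1.53) far to the right, and the MATE transporters spread to both sides of 0 on both axes.

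Genome neighbours, 3 protein-coding genes to each side of each gene, were read as well. Of 24 such neighbours 10 had a named probe set, 7 of them past the filter. Of the 7, 0 had their 3 highest signals in arrays 28, 30 and 20, as did 10.6% of all tested probe sets. With 7 genes this count does not set the neighbours apart from all probe sets. AT3G28540, the third gene after AT3G28510 and of the same family, had 203, 36.2 and 117 in SA arrays 28 to 30, against 52.0, 54.4 and 56.1 in silwet arrays 19 to 21, so that it was high in arrays 28 and 30 and not in array 20. AT3G28520, next to AT3G28510 and listed in the same family, stayed at or below 9.60. AT1G02370, next to the chitinase gene, had 59.5, 36.8 and 21.7 in the SA arrays of block 1, against 50.7, 35.3 and 36.8 in silwet, with the treatments overlapping.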

How the data were processed

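A single table of intensities, 1 for each probe set and array, was deposited by the authors; the submitters' processing notes name MAS5, with neither version nor settings. Each column's 2% trimmed mean was 100.0, so the arrays were taken as scaled, and a change in total RNA would not show. Intensities were log2 transformed with no pseudocount, without the 64 control probe sets, and 13648 probe sets with a mean log2 signal at or above the 40th percentile (4.31) were tested. Limma 3.58.1 (R 4.3.3) with an intensity trend was fitted to the whole table, by treatment and by 6 groups of treatment and serial block, and calls had a Benjamini-Hochberg adjusted p under 0.05. The code was tested on simulated data. Permutation tests used 100000 resamples (SciPy 1.17.1). Genes were named through the platform annotation and the TAIR10.1 gene table. The members and 7 gene lists (160 loci, 77 with a named probe set, 38 tested) were chosen with earlier results of these data known. Genes named were the 4, the 5 nearest to each, the 3 of highest mean signal per list, and, chosen after their values were seen, other called list genes, SAG101, AT3G28540, AT3G28520, AT1G02370 and PDF1.2. Relatives by protein identity, planned for naming, were not analysed here. Columns without a sample numbered 0. The number of arrays limits the precision.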

Additional observations from a re-analysis of the deposited data

Results flagged for a closer look

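Of 32 groups of arrays examined (each gene within a treatment, a replicate number or a block), 9 had a sample far from the others on the log2 scale. Chance alone would give about 1 in 20, but these groups share arrays, and the genes were chosen for their signal in the same 3 arrays. Silwet array 20 was the highest of its 9 by a gap of 0.526 of the range for AT3G28510, 0.670 for AT4G22530 and 0.616 for AT1G02360. Within replicate number 2 it was the highest of 6 by 0.682 for AT4G22530 and 0.649 for AT1G02360. SA array 30 was the highest within replicate number 3 by 0.699 for AT3G28510, 0.634 for AT4G22530 and 0.633 for AT1G02360, and SA array 28 within replicate number 1 by 0.700 for AT4G22530. AT3G23550 gave no such gap.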

How the results depend on the processing

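The SA comparison over all arrays and that within block 3 gave 0 calls under every alternative run. Array weights, and leaving out arrays 20, 28 and 30, each gave 1 call in block 2 and 1 in the test between blocks. Leaving out a replicate number or a single array gave 0 to 1134 calls for block 1, 0 to 1 for block 2, 0 to 77 for the test between blocks, 11 to 3395 for the serial blocks (main count 1381) and 0 to 499 for the replicate number (main count 400). The highest counts for block 1, block 2 and the test between blocks came without replicate 2. For the serial blocks the low count came without replicate 3 and the high one without array 29, and the count was 540 without replicate 1, 516 without array 20, 881 without array 23, 891 without array 26, 893 without array 28 and 474 without array 30. The serial block count was 3795 with array weights and 116 without arrays 20, 28 and 30. The replicate number count was 209 with a filter at the 60th percentile, 609 with median centring, 1417 with array weights and 749 without arrays 20, 28 and 30. The cause of these shifts was not tested. With the replicate number as a block the serial block count was 1810 and every SA count 0. Same-numbered SA and silwet arrays of a block deviated together at r from -0.70 to 0.66, over 0.1 in 6 of 9 pairs. Of the 9 SA arrays 5 correlated best with their own number, all of them in blocks 2 and 3. For replicates 1, 2 and 3 r was -0.00016, -0.70 and 0.12 in block 1. It was 0.45, 0.03 and 0.35 in block 2, and 0.66, 0.32 and 0.64 in block 3. The numbers were not taken as pairs in the main fits, so spread shared by number in blocks 2 and 3 may add to their SEs. The filter at the 60th percentile left AT4G22530 as the only 1 of the 4 genes tested, and quantile normalization left out AT1G02360. A pseudocount of 16 turned the SA difference over all arrays to 0.04 for AT3G28510 and 0.04 for AT1G02360. Fits of a block alone, and leaving out arrays 20, 28 and 30 within blocks, were chosen after seeing the data.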
